A study of Mus musculus with 13 samples.

Results

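Gene expression in mouse back skin was compared between the first hours of the light phase and the first hours of the dark phase. The early light group was the 5 arrays collected at ZT2 and ZT6 (hours 2, 26 and 50, and hours 6 and 30), and the early dark group was the 4 arrays collected at ZT14 and ZT18 (hours 14 and 38, and hours 18 and 42). ZT is zeitgeber time, counted from lights on at ZT0, with lights off at ZT12. The groups were set by the collection hour in the labels alone, and they take 9 of the 13 arrays of the series. The other 4 arrays, from ZT10 (late light, 2 arrays) and ZT22 (late dark, 2 arrays), served to estimate the spread and to compare the early difference with the late one.

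Both groups came from the same kind of animal, male mice of the strain given as C57Bl6, aged 46 days, with hair follicles at rest (telogen), and fed chow without restriction. The labels give neither group a treatment or an engineered allele, and set only the hour and day of collection between them. Whole back skin holds epidermis, follicles, dermis, fat, muscle and blood, and in such bulk tissue fewer cells of a type and less RNA per cell cannot be told apart. Each array holds RNA pooled from 3 mice, so the errors below are the spread between pools of different hours and days, not between single mice. Values are deposited probe set intensities, which rank a gene across arrays but do not compare 1 gene with another, and differences are on the scale of log2(intensity + 16), early light minus early dark.

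The mammalian clock is a loop of transcription factors. BMAL1 (gene Arntl) and CLOCK bind E-box sequences and switch on the Per, Cry, Nr1d and Dbp genes; PER and CRY proteins then repress BMAL1 and CLOCK, REV-ERB proteins (genes Nr1d1 and Nr1d2) repress Arntl through ROR response elements, and DBP, TEF, HLF and NFIL3 act through D-boxes. In skin the clock is known to time keratinocyte division, metabolism and the repair of DNA damaged by ultraviolet light.

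The sequences below are proximal promoters printed because they carry a clock motif, so they do not show how common the motifs are. They come from the genes called higher in early dark (Cry1, Lonrf3) and from a gene called higher in early light when each time of day had its own mean (Pfkfb3). The others are genes whose order between light and dark turned over within 4 h (Ciart, Per3). They are RefSeq sequences of the build GRCm38.p6, read 5′ to 3′ on the strand of the gene and lying wholly before its start. Capitals mark an E-box (CACGTG) or, for Per3, a D-box (TTATGTAA).
Cry1, chr10:85185079-85185144, minus strand: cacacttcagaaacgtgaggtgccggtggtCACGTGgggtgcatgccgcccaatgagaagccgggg
Lonrf3, chrX:36328334-36328399, plus strand: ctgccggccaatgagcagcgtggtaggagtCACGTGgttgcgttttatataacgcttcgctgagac
Pfkfb3, chr2:11502108-11502173, minus strand: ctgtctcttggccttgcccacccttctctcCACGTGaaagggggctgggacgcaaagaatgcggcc
Ciart, chr3:95882309-95882374, minus strand: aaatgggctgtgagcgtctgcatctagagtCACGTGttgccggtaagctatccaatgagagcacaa
Per3, chr4:151044833-151044900, minus strand: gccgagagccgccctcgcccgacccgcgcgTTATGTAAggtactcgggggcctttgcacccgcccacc

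The E-box ends 55 bases before the start of Cry1, 40 before Lonrf3, 48 before Pfkfb3 and 111 before the start of Ciart, which holds 3 E-boxes in this window. Per3 holds 2 D-boxes, the printed one ending 198 bases before its start. Motifs were searched on both strands in the 250 bases before each start, as CACGTG, as TTATGTAA or TTACGTAA, and as the ROR response element, and no motif's letters lie within another's. The E-box was found in 9.33% of the 11774 tested genes that have a promoter sequence, the D-box in 0.892% and the ROR response element in 0.263%. Among the 5 genes called between the groups, 2 held an E-box (40%), and these were the 2 called higher in early dark. When each time of day had its own mean, 12 genes were called, and 9 of them have a promoter sequence. Of these 9, 3 held an E-box (33.3%), which were Cry1, Lonrf3 and Pfkfb3, and 0 held a D-box. A match is a run of letters and not a measured binding site.

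Across 14953 genes tested with limma (Benjamini-Hochberg adjustment, threshold 0.05), 5 were called between early light and early dark, which is 0.0334% of them. The genes Asb12, Cirbp and Zim1 were higher in early light, and Cry1 and Lonrf3 were higher in early dark. For each of the 5, the groups of arrays did not overlap, which held for 1182 genes (7.9% of those tested), 696 of them higher in early light and 486 higher in early dark. At an unadjusted p under 0.05, 1579 genes were higher in early light (10.6%) and 1400 higher in early dark (9.36%), where 748 in all are expected with no difference. The median difference over all genes was 0.03.

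Cry1, a core repressor that binds BMAL1 and CLOCK, had intensities of 298, 301 and 300 on the ZT2 arrays and 247 and 199 on the ZT6 arrays. In early dark it had 578 and 492 at ZT14 and 514 and 658 at ZT18. Every dark array stood well above every light array, with a difference of -1.02 ± 0.13 (SE; limma adjusted p = 0.0308), or 2.03-fold higher in early dark. The difference was -0.97 for hours 2 and 6 against 14 and 18, and -1.16 for hours 26 and 30 against 38 and 42, which share no array.

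Lonrf3, which encodes a RING finger protein with a LON protease-like domain, had 189, 201 and 186 at ZT2 and 156 and 165 at ZT6. Its dark values were 302 and 292 at ZT14 and 256 and 299 at ZT18. The 4 dark arrays lay above the 5 light arrays, by 1.56-fold (-0.64 ± 0.08 SE, limma adjusted p = 0.0308). The difference was -0.65 in each of these sets of hours, and like Cry1 the gene has its lowest arrays at ZT6.

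Asb12, an ankyrin repeat protein with the SOCS box of ubiquitin ligase adaptors, had 1870, 2090 and 2300 at ZT2, 2199 and 1774 at ZT6, 1384 and 1290 at ZT14, and 1213 and 1271 at ZT18. The light arrays all lay above the dark arrays, 1.57-fold on average (0.65 ± 0.08 SE, limma adjusted p = 0.0308). The ZT10 arrays, with 1084 and 1516, lay below every early light array.

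Cirbp, the cold-inducible RNA-binding protein known to follow the daily cycle of body temperature, had 1030, 1077 and 956 at ZT2 and 1036 and 1153 at ZT6. Its dark arrays read 666 and 742 at ZT14 and 758 and 718 at ZT18. The ratio was 1.45 (0.53 ± 0.07 SE, limma adjusted p = 0.0308), and the ZT10 arrays, 1012 and 1186, lay within or above the range of early light. Zim1, an imprinted zinc finger gene, had 377, 403 and 369 at ZT2, 379 and 376 at ZT6, 268 and 283 at ZT14, and 290 and 293 at ZT18. Its light and dark values each lay in a narrow range, 1.33-fold apart (0.41 ± 0.06 SE, limma adjusted p = 0.0435). Peg3, an imprinted gene that follows Zim1 in RefSeq's order along chromosome 7, was 0.48 ± 0.09 higher in early light with groups that did not overlap, but did not pass (limma adjusted p = 0.117); it was chosen after its value was seen.

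**Figure D1:**
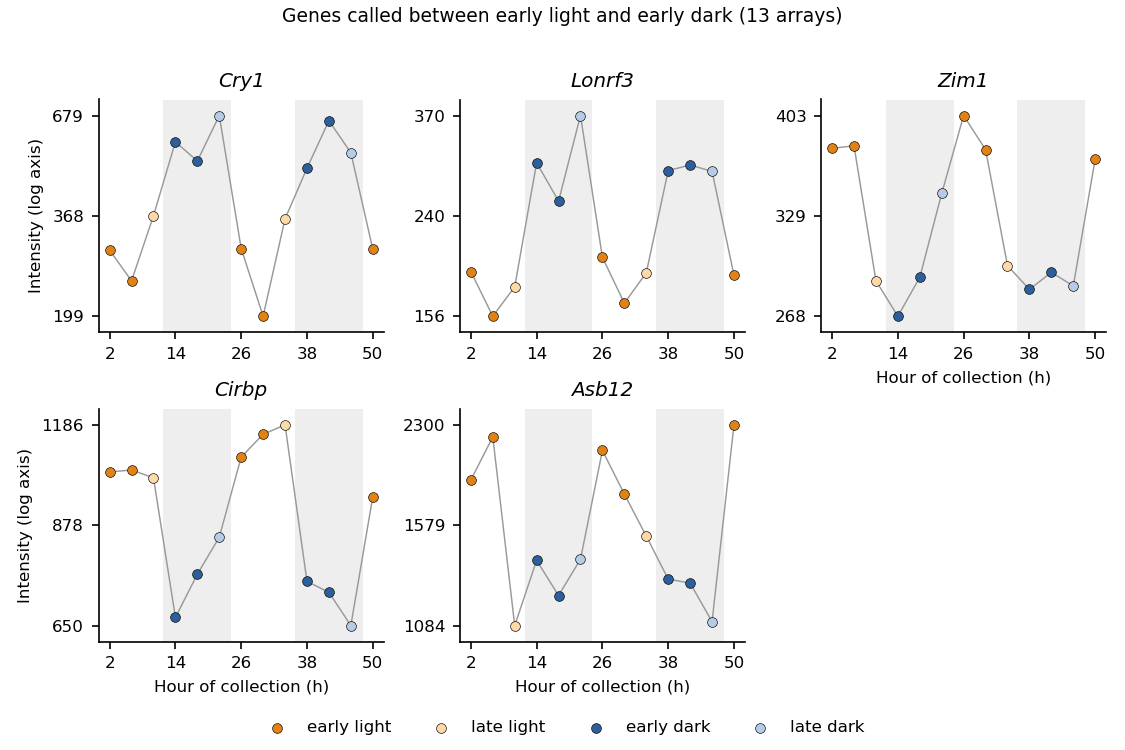
Intensity (log axis) of the 5 genes called between early light and early dark, at each hour of collection, 1 array of 3 pooled mice per point; grey bands are the dark phases. Cry1 and Lonrf3 sit low in the orange early light points and high in the dark blue early dark points, and Zim1, Cirbp and Asb12 the reverse, on both days.

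This count rested on few arrays. Leaving out the array of hour 6, 26, 50, 14, 38 or 42 gave 0 calls (limma, with 1891 to 3246 genes at an unadjusted p under 0.05), leaving out hour 30 gave 2, hour 2 gave 23 and hour 18 gave 48. With the collection day as a block, where the array of hour 50 has a day to itself and adds nothing, limma called 0 genes with 3153 at an unadjusted p under 0.05, and with array weights it called 485. The difference of each of the 5 genes kept its sign under every alternative run.

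The first ZT2 array stood apart from the rest, with a mean correlation of 0.961 with the other 8 arrays where those had 0.976 to 0.985. Without it 23 genes were called (0.154% of those tested), 18 higher in early light and 5 higher in early dark, and the 5 genes above were among them. The added genes were chosen after their values were seen. Tnfaip2, induced by TNF, was the largest of those higher in early light, at 0.71 without this array and 0.65 with it; it had 832, 1112 and 1024 at ZT2 and 1128 and 958 at ZT6, and 504 to 729 in early dark. Tnc, the matrix glycoprotein tenascin C, was at 0.58, and Hmcn1, the matrix protein hemicentin, at 0.55. Hmcn1 has 77 probe sets, and its value comes only from the probe set with the highest mean. Klhl31 and Cavin4, both expressed in striated muscle, and Mef2c, a transcription factor of muscle, were at 0.55, 0.51 and 0.38. Higher in early dark were Hsph1, a large heat shock protein of the HSP110 family, at -0.53, the nuclear matrix protein gene Banp at -0.39 and the small nucleolar RNA gene Snord14e at -0.49. Over the 23 genes the adjusted p from limma ran from 0.0383 to 0.0489, which was that of Hsph1.

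Giving each time of day its own mean, and setting the average of ZT2 and ZT6 against the average of ZT14 and ZT18 over all 13 arrays, removed the change within each group from the error. This fit called 12 genes (0.0803% of those tested), 3 higher in early light and 9 higher in early dark, and 2 of them, Cry1 and Lonrf3, were also called between the plain groups. Of the other 10, those outside the clock except Pfkfb3 and Angptl7 were chosen after their values were seen. Without the first ZT2 array the count was 26 (0.174%), and the 12 were all among these. Leaving out any other single array of the 2 groups gave 3 to 7 calls, apart from hour 18, which gave 20. Of the arrays outside the groups, leaving out either ZT22 array gave 18 calls, 8 higher in early light and 10 higher in early dark, with 3022 genes at an unadjusted p under 0.05 against 1882, and leaving out either ZT10 array gave 11. Within ZT22, and within ZT10, both leave-outs are the same fit, since the array left at that hour adds nothing to the spread. Cry1, Per2 and Nr1d1 passed under every alternative run for this fit, and the other 9 did not.

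Higher in early light in this fit were Nr1d1, Pfkfb3 and Car12. Nr1d1, which encodes the repressor REV-ERB alpha, had 5021, 5663 and 5328 at ZT2, 10545 and 9894 at ZT6, 3510 and 4991 at ZT14, and 1988 and 1113 at ZT18. All light arrays were above all dark arrays, and the difference was 1.56 ± 0.15 (SE, limma adjusted p = 0.00407), most of it from ZT6 against ZT18 (2.77) and little from ZT2 against ZT14 (0.35). Pfkfb3, whose product makes the activator of the glycolytic enzyme phosphofructokinase, followed the same hours, with 956, 897 and 845 at ZT2, 1589 and 1517 at ZT6, 760 and 881 at ZT14, and 662 and 503 at ZT18 (0.77 ± 0.09 SE, limma adjusted p = 0.0129). Only its lowest ZT2 array fell below its highest ZT14 array. Car12, a membrane-bound carbonic anhydrase, differed by 0.60 ± 0.09 (SE, limma adjusted p = 0.0318), with 1278 to 1540 in early light and 718 to 1212 in early dark.

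Higher in early dark in this fit, beside Cry1 and Lonrf3, were 7 genes with their highest arrays at ZT14. Per2, a core repressor of the clock, had 162, 126 and 126 at ZT2, 675 and 421 at ZT6, 1904 and 1768 at ZT14, and 455 and 879 at ZT18. The groups overlapped, since 1 of the ZT6 arrays lay above 1 of the ZT18 arrays, and the difference was -1.92 ± 0.19 (SE, limma adjusted p = 0.00407), from -3.60 for ZT2 against ZT14 and -0.24 for ZT6 against ZT18. Angptl7, a secreted angiopoietin-like protein, had 3186 and 3530 at ZT14 against 355 to 621 at ZT2, with 639 and 1087 at ZT18 and 993 and 1059 at ZT6 (-1.26 ± 0.18 SE, limma adjusted p = 0.0302). Its groups overlapped too. Unlike Per2, its order turned over, with -2.81 for ZT2 against ZT14 and 0.29 for ZT6 against ZT18.

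Cntfr, the receptor subunit for ciliary neurotrophic factor, was at 680 to 863 in early light and at 2517 and 2002 at ZT14, with 960 and 1698 at ZT18 (-1.12 ± 0.15 SE, limma adjusted p = 0.0264). Cys1, which encodes cystin, a protein of primary cilia, differed by -0.91 ± 0.11 (SE, limma adjusted p = 0.0129). The flavin monooxygenase gene Fmo2 differed by -0.86 ± 0.12, Ppp1r3b, which targets a phosphatase to glycogen, by -0.69 ± 0.08, and the anion channel gene Best2 by -0.65 ± 0.07. Their adjusted p-values from limma were 0.0252, 0.0129 and 0.00491, and for Cys1, Ppp1r3b, Best2, Cntfr and Fmo2 the early light and early dark arrays did not overlap. Best2 read 196 to 219 on all 5 light arrays, 454 and 458 at ZT14, and 242 and 264 at ZT18.

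The clock genes as a whole were described by role, from 3 lists chosen with earlier results of these data known. In these lists 26 genes were tested; Npas2 had no probe set of 1 gene and Rorb was left out by the filter on dim genes. Between the plain groups only Cry1 was called of the 26. In the fit by time of day Cry1, Per2 and Nr1d1 were, all from the list of 10 repressors.

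Among the activators, Arntl had 1594, 1661 and 1630 at ZT2 and 670 and 774 at ZT14, but 646 and 828 at ZT6 against 1663 and 1329 at ZT18. Light minus dark was 1.16 for ZT2 against ZT14 and -1.01 for ZT6 against ZT18, so the mean difference was 0.08 ± 0.11 (SE, limma adjusted p = 0.744). Its partner Clock had the same order with smaller steps, 0.37 and -0.27. Arntl2, a relative of Arntl, differed by 0.22 ± 0.09 and the receptor gene Rora by 0.03 ± 0.07, with adjusted p-values from limma of 0.216 and 0.86 between the plain groups.

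The repressors and output factors turned over the other way. Dbp, a D-box activator, had 940, 684 and 463 at ZT2 and 3160 and 4697 at ZT14, then 5889 and 4552 at ZT6 and 468 and 995 at ZT18. Light minus dark was -2.50 for ZT2 against ZT14 and 2.89 for ZT6 against ZT18, which left 0.20 ± 0.24 for the mean (SE, limma adjusted p = 0.7). Ciart, a repressor also called Chrono, went from -1.53 to 1.64, and Per3 from -2.16 to 1.18. Nr1d2, which encodes REV-ERB beta, went from -0.87 to 2.07, Bhlhe41 from -0.82 to 1.47 and its relative Bhlhe40 from -0.85 to 0.79. Per1 went from -1.10 to 0.69 and Tef, a D-box activator, from -1.65 to 0.80.

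Hlf, the third D-box activator, had -1.10 and 0.43, and Cry2 -0.67 and 0.36. Nfil3, the repressor at D-boxes, ran against these, with 0.42 for ZT2 against ZT14 and -1.28 for ZT6 against ZT18. Each of these genes from Arntl to Nfil3 apart from Arntl2 and Rora thus had opposite orders of light and dark in hours 4 h apart, and none of them passed between the plain groups.

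**Figure D2:**
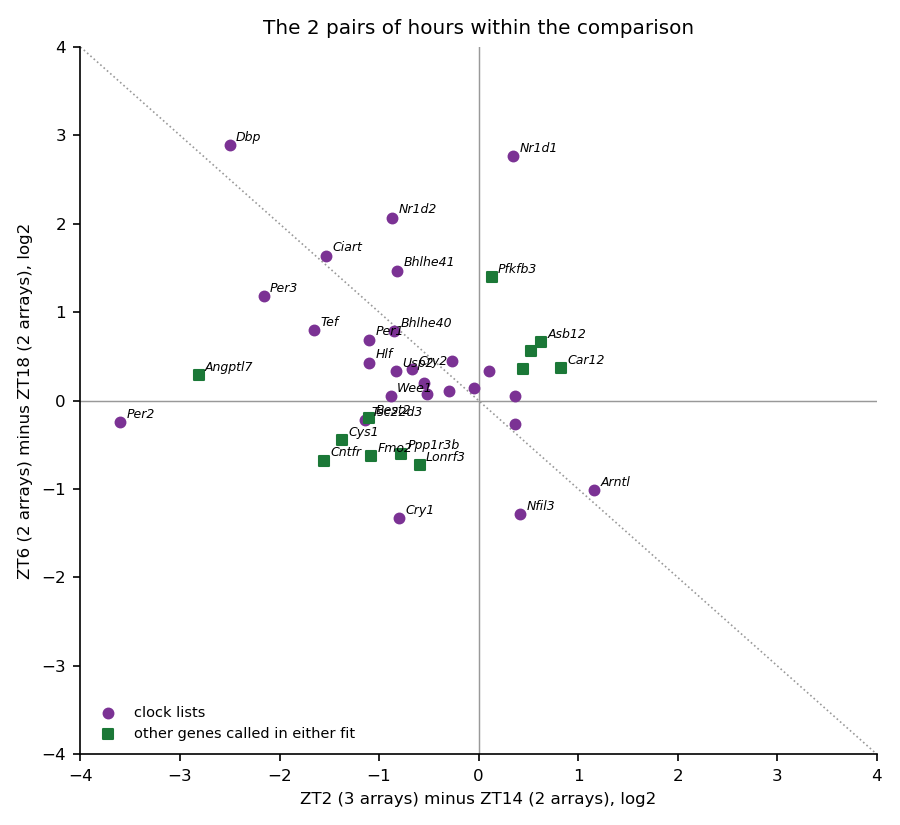
Difference of ZT2 from ZT14 (x axis, log2) against that of ZT6 from ZT18 (y axis, log2) for the 26 clock genes tested (circles) and the other genes called in either fit (squares); on the dotted line the 2 differences cancel. Dbp, Ciart, Nr1d2, Per3 and Bhlhe41 lie in the upper left, Arntl in the lower right, and Cry1 and Lonrf3 in the lower left, where both pairs of hours have the same order.

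Among the remaining output genes Tsc22d3, the gene of GILZ, an effector of glucocorticoids, had -1.14 and -0.22, with 965 to 1246 in early light, 1071 and 1727 at ZT18, and 2415 and 2303 at ZT14. Wee1, whose kinase delays mitosis, had -0.88 and 0.05. The deubiquitinase gene Usp2 had opposite orders, -0.83 and 0.33. Of the zinc finger factors, Klf9 had -0.27 and 0.45 and Klf15 -0.55 and 0.20, again opposite orders, Klf10 had 0.10 and 0.33, and Klf13 -0.52 and 0.07. Nampt, which makes a precursor of NAD, had -0.30 and 0.11. None of the 8 passed in either fit (limma adjusted p from 0.142 to 0.847).

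**Figure D3:**
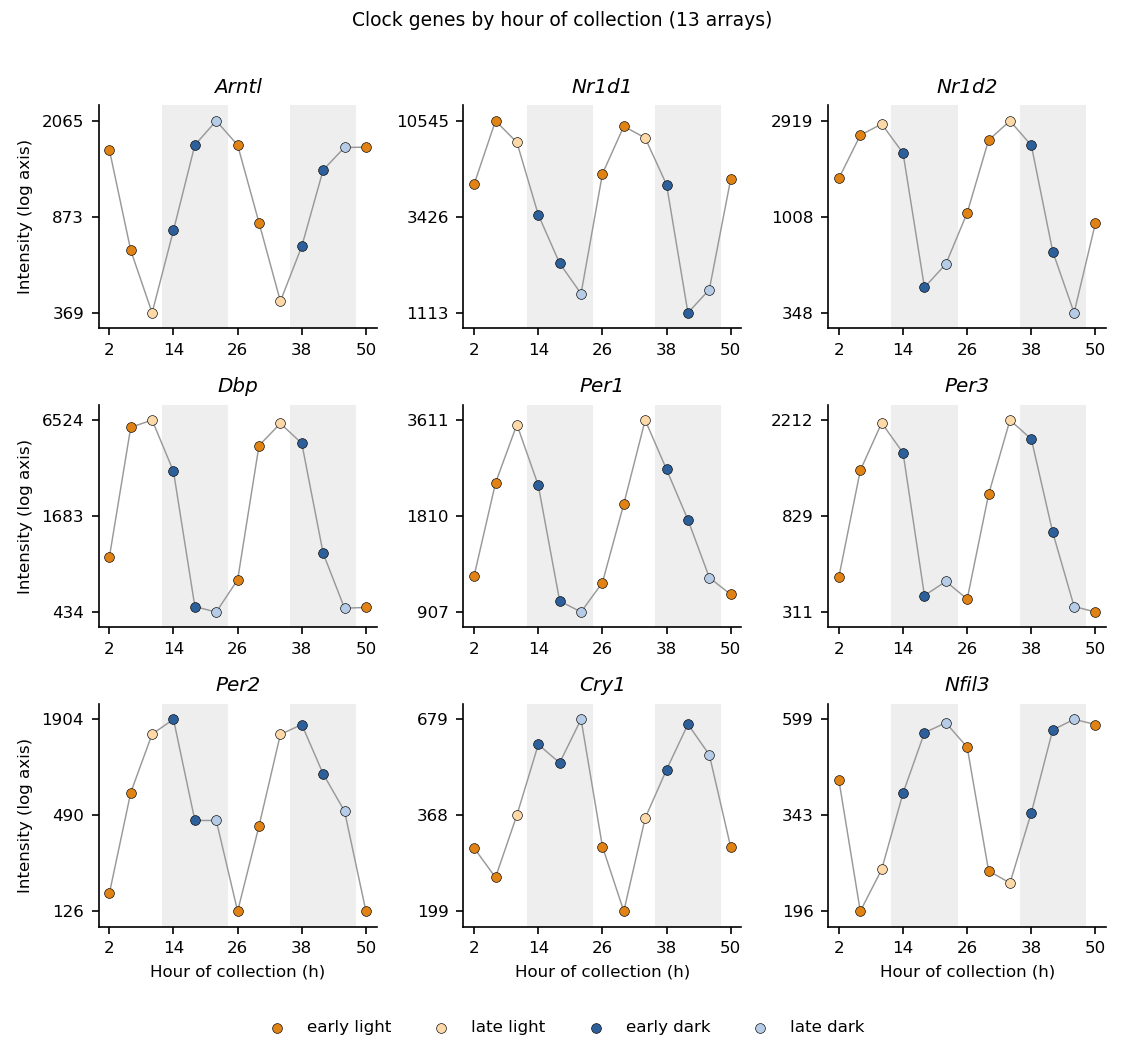
Intensity (log axis) of 9 clock genes at each hour of collection, 1 array of 3 pooled mice per point, coloured by group; grey bands are the dark phases. Each early group joins a low and a high hour for Arntl, Dbp, Per1, Per3 and Nr1d2, while Cry1 is low on all 5 early light arrays and high on all 4 early dark arrays.

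How far the arrays of a group differ by hour was tested in the same fit. From ZT2 to ZT6, 5 genes were called (0.0334% of those tested), each a clock gene: Dbp (2.92), Per2 (1.85) and Ciart (1.69) rose, and Arntl (-1.14) and Nfil3 (-1.12) fell, with adjusted p-values from limma of 0.031 to 0.0475. Leaving out the array of hour 18 or 42 gave 7 calls, hour 2 gave 2, and any of the other 10 arrays gave 0. For an hour of 2 arrays that a difference does not use, leaving out either array gives the same fit, so such leave-outs are not separate checks. From ZT14 to ZT18 limma called 0 genes (0% of those tested), with 662 at an unadjusted p under 0.05 and a smallest adjusted p of 0.0737. Among the large steps were -2.47 for Dbp, -1.99 for Angptl7, -1.89 for Nr1d2 and -1.71 for Per3, each at this adjusted p. Leaving out hour 2, 18 or 42 gave 8, 2 and 16 calls.

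Whether light and dark differ in the same way early and late in the phases was tested by setting the early difference against that of ZT10 from ZT22, which share no array. The 2 differences were unequal for 44 genes (0.294% of those tested). For 13 the early difference was above the late one and for 31 below it; after quantile normalization the split was 37 and 40, and after median centring 22 and 30. Leaving out any 1 of the 13 arrays moved the count by over 1.5 times, from 12 without hour 10 or 38 to 341 without hour 34 and 1419 without hour 46.

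Arntl had the smallest p of those above, with 0.08 early and -2.19 late (a gap of 2.27 ± 0.19 SE, limma adjusted p = 0.00232). Spon2, a secreted matrix protein, had 0.79 early and -1.86 late (adjusted p from limma 0.00637); its intensities were 346 and 359 at ZT14, 1489 and 947 at ZT18, 1448 and 1633 at ZT22, and 1062, 1890 and 1540 at ZT2. Arhgap20, a GTPase-activating protein, had 0.51 and -1.47, and Cxcl14, a chemokine of skin, 0.19 and -1.26. Tshr, the receptor for thyrotropin, also among the 13 and chosen after its value was seen, had 0.55 and -1.27.

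Per2 had the smallest p of those below, with -1.92 early and 1.63 late (a gap of -3.55 ± 0.33 SE, limma adjusted p = 0.0033). The gap was -3.59 for Dbp, -3.04 for Angptl7, -2.98 for Per3 and -2.64 for Ciart. In all, 13 genes of the clock lists were among the 44, 2 above (Arntl, Clock) and 11 below (Per1, Per2, Per3, Ciart, Nr1d2, Bhlhe40, Dbp, Tef, Hlf, Usp2, Tsc22d3). Fkbp5, which glucocorticoids induce, had -0.79 early and 0.83 late. Zbtb16, also induced by glucocorticoids, had -0.54 and 1.21, the taurine carrier gene Slc6a6 -0.10 and 1.04, and the secreted stanniocalcin gene Stc2 -0.06 and 0.82; these 3 were chosen after their values were seen. Of the 29 named genes whose gap was called, 11 passed under every alternative run, among them Arntl, Per2, Per3, Dbp, Ciart, Angptl7 and Spon2. Of the 22 genes called below that have a promoter sequence, 5 held an E-box (22.7%) and 2 a D-box (9.09%); of the 10 called above, 2 held an E-box (20%) and 0 a D-box, beside the 9.33% and 0.892% of all genes.

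**Figure D4:**
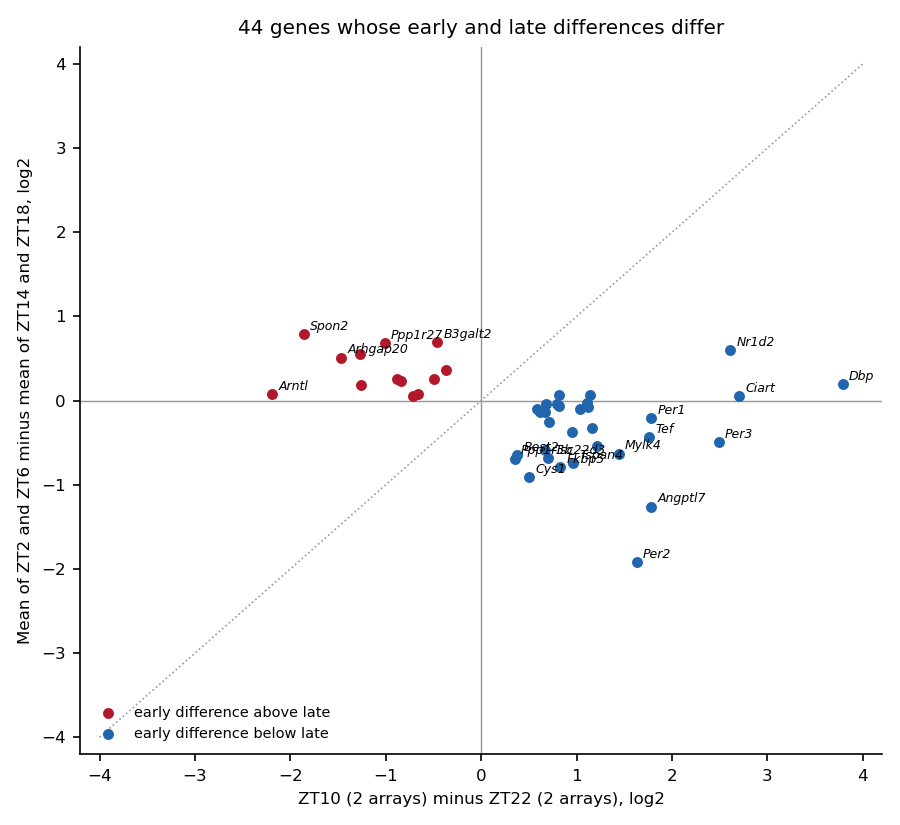
Late difference (ZT10 minus ZT22, x axis, log2) against early difference (mean of ZT2 and ZT6 minus mean of ZT14 and ZT18, y axis, log2) for the 44 genes where they differ (limma adjusted p under 0.05); on the dotted line they are equal. Most points lie farther from 0 on the x axis than on the y axis, Dbp, Ciart and Nr1d2 to the right and Arntl to the left.

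The other gene groups were read from 39 lists of pathways, cell types and other tissues, beside the 10.6% and 9.36% of all genes past an unadjusted p of 0.05 in the directions of light and dark and the median of 0.03. After adjustment over all genes only Cirbp was called in any of them, so the values that follow describe lists of genes that did not pass one by one. The background of all genes shifts with brightness. With the dimmest 50% of genes left out, 74.8% of genes at an unadjusted p under 0.05 were higher in early light, against 53% as reported. Lists were not matched to genes of like intensity, so a bright or a dim list may be set beside a background unlike it.

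All 4 tested genes of cold-inducible RNA-binding proteins were higher in early light at an unadjusted p under 0.05, with a median of 0.30. Rbm3, which like Cirbp is known to be induced by mild cooling, had 4491 to 6119 in early light and 3920 to 4997 in early dark (0.30 ± 0.10 SE, limma adjusted p = 0.19). Srsf5, a splicing factor, had 1531 to 2204 and 1278 to 1481, without overlap (0.31 ± 0.10 SE, limma adjusted p = 0.187). Heat shock proteins lay on the other side: 0 of 18 were higher in early light and 4 in early dark at an unadjusted p under 0.05, with a median of -0.09. Hspa8, the constitutive HSP70, differed by -0.19 ± 0.05 with no overlap and the inducible Hspa1a by -0.33 ± 0.11, with adjusted p-values from limma of 0.167 and 0.185.

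In oxidative phosphorylation all 39 tested subunits had a positive difference, with a median of 0.17; 19 of them (and 0 in the other direction) passed an unadjusted p of 0.05, and in 11 the groups did not overlap. The subunit genes Ndufa4, Atp5o (ATP synthase) and Cox5b (cytochrome oxidase) differed by 0.29 ± 0.07, 0.28 ± 0.07 and 0.21 ± 0.06. Proteasome subunits were likewise all positive, 29 of 29, with a median of 0.16 and 12 past an unadjusted p of 0.05; Psma2, Psmb6 and Psmb7 differed by 0.30, 0.24 and 0.23. Cytosolic ribosomal proteins were positive in 28 of 29 with a median of 0.10, but 0 passed an unadjusted p of 0.05, and without the first ZT2 array the median was 0.03. Over the same change the medians of oxidative phosphorylation and the proteasome became 0.13 and 0.13, and after quantile normalization they were 0.14 and 0.13.

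Genes of mitosis and the G2 phase had a median of 0.22, with 26 of 28 positive and 9 higher in early light at an unadjusted p under 0.05. For ZT2 against ZT14 the median was 0.44, and for ZT6 against ZT18 it was -0.02. The mean log2 level of this list was 8.96 and 8.92 on the ZT6 arrays, and 9.15 and 8.77 on the ZT18 arrays. One ZT18 array thus lay above both ZT6 arrays and the other below both, so the -0.02 joins opposite orders and does not show equal levels. Plk1, a mitotic kinase, differed by 0.44 ± 0.14, the cyclin gene Ccnb2 by 0.39 ± 0.12 and Cdc20, which activates the anaphase promoting complex, by 0.37 ± 0.11 (limma adjusted p 0.18, 0.186 and 0.183). Genes of DNA replication and S phase had a median of -0.02, with 13 of 28 positive and 3 higher in early light, Slbp, Prim1 and Rfc4. For nucleotide excision repair, the pathway that removes ultraviolet lesions, 20 of 22 were positive with a median of 0.06 and 4 past an unadjusted p of 0.05. Xpa, its damage-verifying factor, differed by 0.29 ± 0.10 (limma adjusted p = 0.186), with 0.15 for ZT2 against ZT14 and 0.46 for ZT6 against ZT18.

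Genes that glucocorticoids induce had a median of -0.16, with 7 of 23 higher in early dark and 1 higher in early light at an unadjusted p under 0.05. Fkbp5, a chaperone of the glucocorticoid receptor, had 453 to 681 in early light, 1385 and 1387 at ZT14, and 570 and 819 at ZT18 (-0.79 ± 0.23 SE, limma adjusted p = 0.179). Glul, glutamine synthetase, had 4507 to 5392 in early light and 8579 and 8464 at ZT14 (-0.57 ± 0.15 SE, limma adjusted p = 0.167). Immediate early genes had a median of -0.12 with 4 of 23 higher in early dark at an unadjusted p under 0.05, and the groups did not overlap for 3 genes of the list, each higher in early dark. Fosb, an AP-1 subunit, had 208, 465 and 478 at ZT2, 339 and 205 at ZT6, and 562 to 917 in early dark (-1.08 ± 0.26 SE, limma adjusted p = 0.153). Without the first ZT2 array the median of the list was -0.04.

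In lipid metabolism, fatty acid synthesis had a median of -0.08, with 4 of 20 higher in early dark and 0 higher in early light. Thrsp, a lipogenic factor, differed most: 1735, 914 and 1549 at ZT2 and 829 and 953 at ZT6 against 3059, 2759, 1942 and 1881 in early dark (-1.03 ± 0.23 SE, limma adjusted p = 0.143). Lep, the fat cell hormone leptin, had 457 to 681 in early light, 1977 and 1036 at ZT14, and 861 and 686 at ZT18 (-0.90 ± 0.25 SE, limma adjusted p = 0.167), while the adipocyte list as a whole had a median of -0.05. Cholesterol synthesis had a median of 0.07, with 1 of 20, Mvk, past an unadjusted p of 0.05. Glycolysis had 0.08, with 5 of 19 higher in early light, among them Pfkfb3, Ldhb (0.28 ± 0.06) and Aldoc (0.25 ± 0.09). Genes responsive to fasting and insulin had 0.07 with 5 of 24, among them Ppargc1a, a coactivator of mitochondrial genes, at 0.28 ± 0.09.

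Stress and defence lists held no called gene. Antioxidant and NRF2 target genes had a median of 0.05 with 3 of 24 higher in early light, and these were Nqo1 (0.36 ± 0.07), Gsr (0.25 ± 0.08) and Gpx2 (0.44 ± 0.10). Interferon responsive genes had 0.07 with 4 of 15, the unfolded protein response -0.02 with 2 of 27 higher in early dark, and cell cycle inhibitors with p53 targets 0.01 with 1 higher in early light and 3 in early dark of 18. Kinases and turnover factors of clock proteins had 0.03 with 1 of 12. Matrix genes had 3 and 3 of 22, with Timp4, an inhibitor of matrix proteases, at -0.35 ± 0.10 beside Tnc at 0.51 ± 0.10, and solute and water transport had 2 and 3 of 18.

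**Figure D5:**
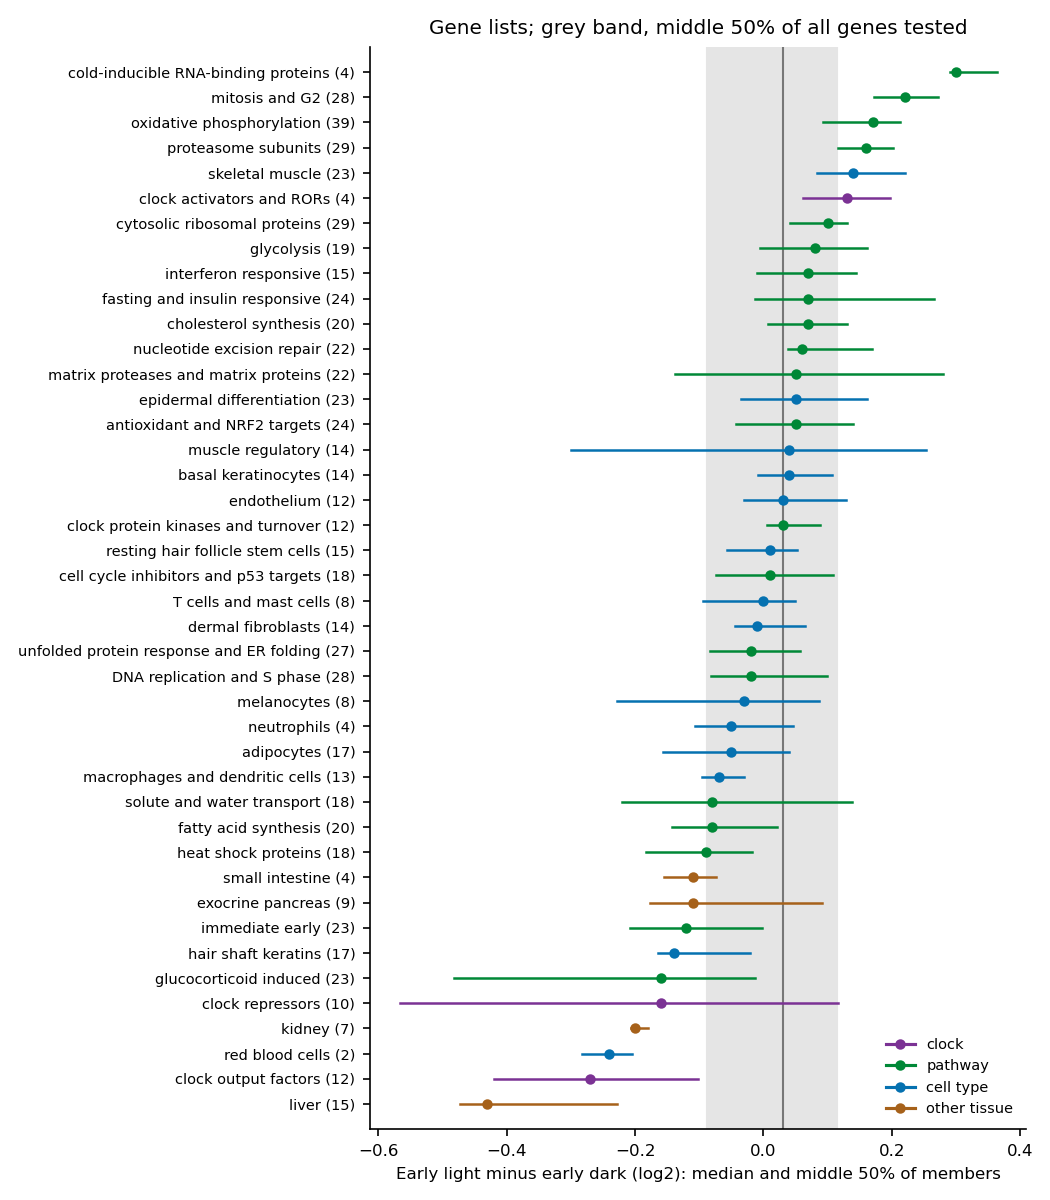
Median early light minus early dark difference (log2, dot) and the middle 50% of members (bar) for each of the 42 gene lists, the number of genes tested in brackets; the grey line and band are the median and middle 50% of all genes tested. The lists of cold-inducible proteins, mitosis, oxidative phosphorylation and the proteasome lie to the right, and liver, clock outputs and glucocorticoid-induced genes to the left.

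The cell type lists described the tissue. Of the measured markers of epidermal differentiation 23 of 24 passed the filter on dim genes, as did all 14 of basal keratinocytes, and the mean log2 level of the first lay between 11.59 and 11.83 on the 9 arrays. That filter leaves out only the dimmest 25%. All 15 measured liver genes passed it too, so passing it does not check the label of the tissue. Differences of the epidermal and basal lists were near the background, with medians of 0.05 and 0.04, and Krt14, the basal keratin, differed by 0.13 ± 0.07. The resting follicle stem cell list had 0.01, with 8 of 15 genes positive and 7 negative. Its 2 genes past an unadjusted p of 0.05 were Lgr5 at 0.27 ± 0.09 and Lgr6 at 0.25 ± 0.10 (limma adjusted p 0.19 and 0.205). Hair shaft keratins had -0.14 with 1 of 17 past an unadjusted p of 0.05. The mean log2 level of hair shaft keratins was 8.07 to 8.62 on the 9 arrays and 10.89 on the second ZT22 array, which enters the spread of the fits over 13 arrays and the late difference. Leaving out that array gives the same fit by time of day as leaving out the other ZT22 array, so that fit says nothing on this array alone.

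Of the other cell type lists, none held a called gene. Medians were 0.14 for skeletal muscle (21 of 23 positive, 2 past an unadjusted p of 0.05), 0.04 for muscle regulators, -0.01 for dermal fibroblasts, -0.03 for melanocytes and 0.03 for endothelium. Among blood and immune cells they were -0.05 for neutrophils (4 genes), -0.24 for red blood cells (2 genes), -0.07 for the macrophage and dendritic list, and 0 for the list of T and mast cell genes. Among melanocyte genes Mlana, a melanosome protein, was at -0.53 ± 0.15 and Mitf, the regulator of the lineage, at 0.18 ± 0.06. The fibroblast list was at 11.59 on the first ZT2 array and at 11.96 to 12.29 on the other 8, and its median became 0.15 without that array. On the same change the median became 0.23 for skeletal muscle, 0.15 for muscle regulators, -0.06 for hair shaft keratins (-0.07 after quantile normalization), 0.08 for resting follicle stem cells, 0.03 for adipocytes and melanocytes, 0.07 for neutrophils and for T and mast cells, and 0 for macrophages. After quantile normalization it was -0.01 for muscle regulators, -0.02 for endothelium and -0.03 for follicle stem cells. The medians of fibroblasts, follicle stem cells, muscle regulators, adipocytes, melanocytes, endothelium and neutrophils thus changed sign under 1 or both of these settings.

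Markers of other organs were also measured in these skin arrays. All 15 tested liver genes had a negative difference, with a median of -0.43, yet 1 of them, Cyp2e1 (-0.40 ± 0.17), passed an unadjusted p of 0.05. The mean log2 level of the liver list ran from 10.91 to 12.61 in early light and from 12.08 to 12.65 in early dark, and from 9.55 to 12.90 over all 13 arrays. By hour it was 12.61, 11.74 and 12.07 at ZT2, 10.91 and 12.15 at ZT6, 12.90 and 10.23 at ZT10, 12.19 and 12.65 at ZT14, 12.08 and 12.13 at ZT18, and 10.66 and 9.55 at ZT22. Both ZT22 arrays lay below every ZT2, ZT14 and ZT18 array, while the ZT6 and the ZT10 arrays differed between the days. Kidney genes had -0.20 with 4 of 7 past an unadjusted p of 0.05, exocrine pancreas -0.11 with 1 of 9 and small intestine -0.11 with 0 of 4. After quantile normalization these medians were -0.09, -0.06 and -0.08. The kidney list was dim, with a mean log2 level of 7.66 to 7.97 in early light and 7.92 to 8.12 in early dark. The median log2 level of these arrays was 9.519 to 9.616. Any part of RNA from other organs in the results above was not tested.

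The comparison was also made within each day. Hours 2 and 6 against 14 and 18, and hours 26 and 30 against 38 and 42, share no array (hour 50 enters neither), and their differences had the same sign for 10623 of the 14953 genes (71%), with a correlation across genes of 0.586, a description since genes are not independent. Without the first ZT2 array the same sign was found for 69.6% of genes, with a correlation of 0.591. The light side of the first day was then hour 6 alone, while the second day kept hours 26 and 30, so the days compare unlike hours. The median size of the difference between the groups, with its sign left out, was 0.105. It was 0.0868 for ZT6 from ZT2 and 0.0932 for ZT18 from ZT14. Each group holds more arrays than a single hour, and spread alone makes such sizes larger where fewer arrays are averaged. The values therefore do not show how the difference between the groups compares with the steps within them.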

How the data were processed

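Probe set intensities of whole back skin were taken as deposited by the authors. The submitters' processing notes list PLIER 2.0 and Affymetrix Expression Console 1.1.1. How arrays were normalized to each other, and from which build and annotation, is not given in the sources used here. Of 35557 probe sets, 21789 name 1 gene, 1621 several and 12147 none or are unlisted. For each of 19938 genes the probe set with the highest mean was kept (999 genes had more than 1), values were turned into log2(intensity + 16), and the dimmest 25% of genes were left out, which gave 14953. Gene identifiers of 21698 probe sets matched RefSeq (GRCm38.p6), used for symbols, gene order and promoters.

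The 5 early light and 4 early dark arrays, numbered in order of collection, were compared with limma 3.58.1 in R 4.3.3 (lmFit, eBayes, two-sided, Benjamini-Hochberg, threshold 0.05, 7 residual degrees of freedom). A second model had 1 mean per time of day over 13 arrays, also with 7; from it came the differences between hours, the difference by time of day, and the early against the late difference. The labels state pooling of 3 mice per collection, and p-values measure the spread between such pools; the number of arrays limits the precision. The tests were checked on simulated data with independent spread on each array and no change between the hours of a group. That check therefore does not cover the changes within groups seen here. Genes changed 2-fold were recovered in 96% in both fits. Of those changed 1.25-fold, 32% were recovered between the plain groups and 26% by time of day. There were 10 and 6 false calls.

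The comparison, the 42 gene lists (809 genes, 741 with a probe set of 1 gene, 696 tested) and the tests were chosen with earlier results of these data known. Genes were named by rule: per direction the 12 largest calls whose groups do not overlap, all measured clock genes, the 3 members of smallest p of every other list, and for the other tests the 4 called genes of smallest p per direction. Alternatives covered offsets of 1 and 64, filters, quantile normalization, median centring, probe set means, an intensity trend, array weights, the day as a block, and each array left out.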

Additional observations from a re-analysis of the deposited data

Results flagged for a closer look

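The difference between light and dark early in the phases was unlike that late in the phases for 29 of the 104 genes named, by limma's test of the difference between the differences. Over all genes tested, 44 were called (0.294%). Part of the 104 genes were named because they passed this same test, so the share among them says nothing beyond that choice. The early difference was above the late one by 2.64 for Spon2, 2.27 for Arntl, 1.97 for Arhgap20, 1.82 for Tshr, 1.69 for Ppp1r27, 1.45 for Cxcl14, 1.15 for B3galt2, 1.13 for Anln and 0.77 for Clock. It was below the late one for the rest of the 29. Among repressors of the clock the gap was -3.55 for Per2, -2.98 for Per3, -2.64 for Ciart, -2.01 for Nr1d2, -1.98 for Per1 and -1.13 for Bhlhe40. Among output factors it was -3.59 for Dbp, -2.19 for Tef, -1.49 for Hlf, -1.38 for Tsc22d3 and -0.96 for Usp2. Outside the clock lists it was -3.04 for Angptl7, -2.06 for Mylk4, -1.76 for Zbtb16, -1.62 for Fkbp5, -1.41 for Cys1, -1.14 for Slc6a6, -1.04 for Ppp1r3b, -1.03 for Best2 and -0.88 for Stc2.

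The spread within each early group was searched for an array far from the others, in 208 groups (104 genes, 2 groups of arrays). Chance sets apart about 5% of groups, and 6 were set apart, 5 of them by the first ZT2 array. Some of the genes, Cybrd1 and Hoxc8 among them, were named because leaving out this array added them to the calls. For these a far first ZT2 array follows from that choice, and the 5% is no measure. Fmo2 was highest there, with 10.16 in log2 where the next array had 9.73, a gap of 0.833 of the whole range. Srsf5 was also highest there, at 11.12 against 10.71 (0.773 of the range), while Gpx2 was lowest, at 8.32 against 8.58 (0.722 of the range). The same array was lowest for Cybrd1, at 8.40 against 9.47 (0.808 of the range), and for Hoxc8, at 9.33 against 10.60 (0.769 of the range). In early dark the array of hour 14 was lowest for Tceal9, at 9.74 against 9.82, where the whole range is small (0.900 of it).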

How the results depend on the processing

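The count of 5 genes between early light and early dark became 0 with no filter on dim genes (limma, 4119 genes at an unadjusted p under 0.05), 2 with the dimmest 50% left out, 0 with the collection day as a block, 485 with array weights and 12 with 1 mean per time of day; leaving out each array gave 0 to 48, and the cause was not tested. The share of genes at an unadjusted p under 0.05 that were higher in early light was 53% as reported, 37.8% with no filter, 74.8% with the dimmest 50% left out, 51.6% after quantile normalization and 48.1% after median centring. The 12 genes of the fit by time of day were within 1.5 times of that number under each setting other than leaving out an array, which gave 3 to 26. Without each array in turn, ZT6 from ZT2 gave 0 to 7 and ZT18 from ZT14 gave 0 to 16. The 44 genes with unequal early and late differences became 27 with no filter and 77 after quantile normalization, and 12 to 1419 without each array. Of the 5 genes called between the groups, none passed under every alternative; Cry1 passed in all but 8 of 19, and no called gene changed its sign in its own test. Genes with differences near 0, such as Dbp, Ciart and Bhlhe40, changed sign under some settings without passing. The replicate number only names an array in order of collection and pairs no arrays, so the one block fitted was the collection day.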

Other observations

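Of the 18 genes that leaving out the first ZT2 array added to the calls, 9 were not yet described; they were chosen after their values were seen. Cybrd1, an iron reductase of membranes, was 0.45 higher in early light without that array and 0.22 with it, and Hoxc8, a homeobox gene of trunk position, 0.50 and 0.21. Cgref1 was at 0.63 and 0.44, and Nxpe5 at 0.61 and 0.48. For the other 5 the difference moved little: Dok5 0.45 and 0.39, Galnt17 0.51 and 0.44, the sodium-proton exchanger gene Slc9a2 0.40 and 0.34, Tceal9 0.42 and 0.47, and 5730455P16Rik 0.34 and 0.33.

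Among genes with unequal early and late differences, Ppp1r27 had 0.68 early and -1.01 late, B3galt2 0.69 and -0.46, and Anln, which encodes the cytokinesis protein anillin, 0.25 and -0.88. Mylk4, a kinase of muscle, had -0.63 and 1.44. These 4 were chosen after their values were seen, and the limits given for this test hold for them.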
